A study of Mus musculus with 27 samples.

Results

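The 48 genes described here encode proteins of the endoplasmic reticulum (ER) that bring new secretory proteins into the ER, fold them, add sugars to them, discard failed ones and pass the rest to the Golgi. They were taken by name from the 54532 gene rows of a count table of mouse thyroid tissue, and were sorted by known function into 9 role groups. Function was the basis of the choice, but earlier results of these data were known when it was made. The shares of these genes that pass are thus descriptions of the set. The table holds 27 libraries of tissue dissected by laser capture, which removes chosen areas of a section under a microscope, in 3 groups of 9. PL libraries were proliferative lesions of exposed mice. NT libraries were normal thyroid of those same exposed mice, which had histological abnormalities nearby, so each PL library has an NT library of the same mouse. NCT libraries were normal thyroid of non-exposed mice. The series title names the exposure as radiation. Each group held 6 female and 3 male mice. The labels give no dose, strain, age or time after exposure. Exposure, bearing a lesion and lying near one cannot be told apart between NT and NCT.

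The ER is the entry point of the secretory pathway. Proteins with a signal peptide are threaded through the Sec61 channel, receive N-linked sugars from the oligosaccharyltransferase, and fold with the help of Hsp70 and Hsp90 family chaperones, lectin chaperones and disulfide isomerases. Proteins that fail are returned to the cytosol for degradation, and a rise in unfolded protein is sensed by IRE1, ATF6 and PERK. These sensors start the unfolded protein response, which as a whole raises genes of the folding machinery. Thyroid follicular cells use this pathway to make thyroglobulin, a very large glycoprotein with many disulfide bonds that is secreted into the follicle as the precursor of thyroid hormone.

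Libraries held 2923851 to 14148601 counts, with medians of 6479022 in PL, 7220957 in NT and 4622595 in NCT. Levels are in CPM, that is, read counts scaled by the size and composition of their library. Reads came from the 3′ end of transcripts. Markers of thyroid follicular cells were detected in every group, and the 10 genes summed to a median of 25730 CPM in PL, 30873 in NT and 41126 in NCT. Markers of other cells also differed between the groups. The 10 C cell markers (calcitonin-producing cells) summed to medians of 154 CPM in PL (104 to 18397), 1537 in NT (447 to 16894) and 3468 in NCT (1351 to 8538). Those of airway and gland epithelium summed to 80.3 CPM in PL (41.3 to 530), 1127 in NT (132 to 7017) and 1320 in NCT (366 to 22806). The fibroblast markers summed to 1232 CPM in PL (601 to 3176), 2179 in NT (1396 to 3559) and 2336 in NCT (1824 to 3036), and the adipocyte markers to 473 CPM in PL (126 to 1791), 642 in NT (415 to 1374) and 1423 in NCT (752 to 6284). No marker of these lists was at 0 in every library of a group. Some libraries had more than 2000 CPM of a gene of another tissue. For Pth, a parathyroid gene, these were replicate 2 of PL, 7 and 9 of NT, and 5 and 8 of NCT, and for Lipf, a gastric lipase, replicate 9 of NCT. In such tissue samples, fewer cells of a type and less RNA per cell cannot be told apart.

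Many genes of this pathway are known to carry an ER stress element (ERSE) in their promoters, a sequence in which CCAAT, bound by NF-Y, lies ahead of CCACG, bound by ATF6 and XBP1. The motif searched was CCAAT, then any 9 bases, then CCACG, on both strands from 250 bases before to 50 bases after the start of each gene in the RefSeq promoter table of GRCm38.p6. Of the 48 genes, 40 were in the table. An exact match was found in 8 of those 40, against 37 of all 27025 genes in the table (0.137%). The genes were picked by function and include textbook targets of this response, so the share is a description of the set. The 9 matches are shown because they are the sequence that these 8 genes share. Each is read 5′ to 3′ on the strand that carries it, and capitals mark the CCAAT and CCACG ends.
Hspa5: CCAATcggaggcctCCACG
Hsp90b1, element farther from the start: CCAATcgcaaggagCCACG
Hsp90b1, element nearer to the start: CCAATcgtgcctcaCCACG
Creld2: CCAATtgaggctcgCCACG
Dnajc3: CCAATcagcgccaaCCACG
Pdia6: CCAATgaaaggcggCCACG
Calr: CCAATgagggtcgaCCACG
Canx: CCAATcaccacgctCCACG
Syvn1: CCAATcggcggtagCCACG

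Counting the start in the RefSeq table as 0, the elements spanned bases -65 to -47 in Hspa5, -212 to -194 and -107 to -89 in Hsp90b1, -126 to -108 in Creld2, -105 to -87 in Dnajc3, -98 to -80 in Pdia6, -162 to -144 in Calr, -145 to -127 in Canx and -44 to -26 in Syvn1. The RefSeq start lies 120 bases inside the GENCODE gene given below for Hspa5, 65 for Hsp90b1, 44 for Pdia6 and 3 for Calr, 44 bases ahead of it for Dnajc3, and at the same base for the other 3 genes, so that the Hspa5 element falls within the GENCODE gene. The element lay on the strand opposite to the gene in Creld2, Calr and the nearer match of Hsp90b1. A shorter relative, ERSE-II (ATTGG, any 1 base, CCACG), was found in Dnajb11 and Herpud1, 2 of the 40 genes, against 12 of 27025. The XBP1 motif UPRE (TGACGTGG), whose reverse complement also starts with CCACG, was found in Txndc5, 1 of 40 (2.50%), against 193 of 27025 (0.714%). A match is a description of the letters and does not show that a factor binds there. Whole promoters follow for Hspa5, the best known target of the response, and for Pdia6 and Calr, which carry the element and were higher in PL against NCT. They are given 5′ to 3′ on the strand of the gene from RefSeq, with the matched ends in capitals. In Calr these ends read CGTGG and ATTGG because the element lies on the other strand.
Hspa5 (chr2:34771840-34772139, + strand): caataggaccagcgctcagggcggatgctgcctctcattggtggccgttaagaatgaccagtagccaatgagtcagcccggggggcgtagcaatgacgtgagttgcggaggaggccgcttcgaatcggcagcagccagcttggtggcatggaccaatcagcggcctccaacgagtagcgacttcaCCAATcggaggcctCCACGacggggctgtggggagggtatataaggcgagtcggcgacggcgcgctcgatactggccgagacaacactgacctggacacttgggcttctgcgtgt
Pdia6 (chr12:17266339-17266638, + strand): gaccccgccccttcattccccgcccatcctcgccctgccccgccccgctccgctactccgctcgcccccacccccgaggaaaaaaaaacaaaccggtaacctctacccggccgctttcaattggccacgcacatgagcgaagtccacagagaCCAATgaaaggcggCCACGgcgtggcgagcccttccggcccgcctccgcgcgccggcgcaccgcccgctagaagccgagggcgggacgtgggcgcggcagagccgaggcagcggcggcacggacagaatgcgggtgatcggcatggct
Calr (chr8:84846882-84847181, - strand): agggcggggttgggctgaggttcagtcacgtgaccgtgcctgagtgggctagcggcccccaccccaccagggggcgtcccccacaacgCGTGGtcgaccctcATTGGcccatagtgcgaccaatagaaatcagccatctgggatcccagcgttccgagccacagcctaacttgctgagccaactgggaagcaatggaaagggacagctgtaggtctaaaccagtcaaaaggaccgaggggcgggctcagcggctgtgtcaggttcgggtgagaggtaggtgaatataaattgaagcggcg

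All 48 genes had enough counts to be tested in each comparison. Against NT, 7 of the 48 were higher in PL and none was lower at an adjusted p of 0.05, which is 14.6% of them, whereas 3.08% of all 14461 genes tested passed, 1.76% as higher and 1.31% as lower. They were Rpn2, Ddost, Ssr1, Tmed10, Pdia6, Pdia3 and Manf. The median log2 fold change of the 48 genes was 0.27, against 0.00 for all genes, and 43 of the 48 had a positive estimate. At an unadjusted p under 0.05, 22 were higher and none lower, whereas 8.89% of all genes were higher and 8.76% lower at that threshold. Against NCT, 11 of the 48 were higher in PL and none was lower (22.9%), whereas 10.1% of all 14234 genes passed, 5.46% as higher and 4.62% as lower. They were Rpn2, Dad1, Stt3a, Ssr1, Tmed10, Pdia3, Pdia4, Pdia6, P4hb, Calr and Sel1l. The median log2 fold change there was 0.09, and 31 of 48 estimates were positive. Both comparisons use the same PL libraries. Tests were edgeR quasi-likelihood tests with Benjamini-Hochberg adjustment over all genes, and PL was set against NT within mice.

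**Figure D1:**
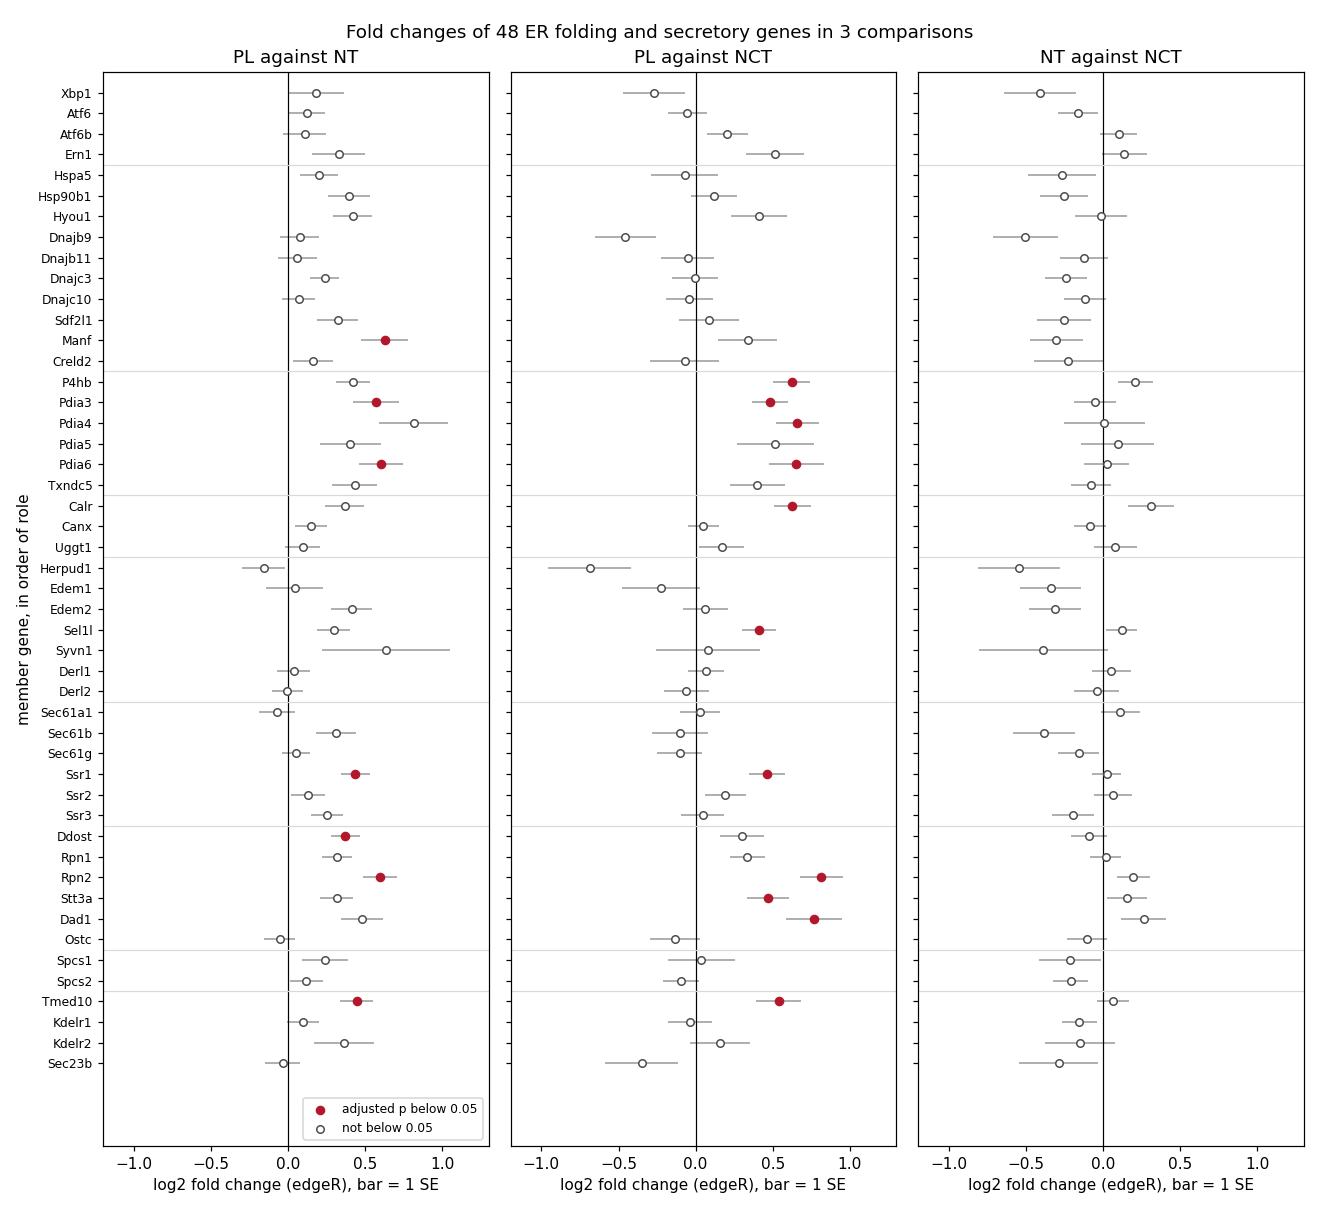
Log2 fold changes (edgeR, x axis, bar 1 SE) of the 48 genes, ordered down the page by role, for PL against NT, PL against NCT and NT against NCT. Filled points have an adjusted p below 0.05, which holds for 7 genes in the first panel, 11 in the second and 0 in the third.

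The oligosaccharyltransferase, the complex that attaches N-linked sugars, had 2 of 6 subunits higher in PL against NT and 3 of 6 against NCT, with median log2 fold changes of 0.34 and 0.40. Rpn2, a subunit of the complex also known as ribophorin II (ENSMUSG00000027642, chr2:157279017-157326319, + strand), had a lowest, median and highest level of 226, 259 and 492 CPM in PL, 162, 185 and 262 CPM in NT, and 150, 169 and 203 CPM in NCT. All 9 PL libraries lay above the highest NCT library. Rpn2 was the only gene of the 48 for which this held, while 0.548% of all genes tested had it. PL exceeded NT in 9 of 9 mice, although the ranges overlapped, with PL replicate 8 the highest library. The log2 fold change was 0.60 (SE 0.11, adjusted p = 0.0127) for PL against NT and 0.81 (SE 0.14, adjusted p = 0.000625) for PL against NCT.

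Ddost, a subunit without catalytic activity, lies at chr4:138304730-138312628 on the + strand (ENSMUSG00000028757). It had 92.7, 114 and 174 CPM in PL, 75.7, 95.6 and 110 CPM in NT, and 73.9, 94.4 and 132 CPM in NCT. PL was above NT in 9 of 9 mice and 5 PL libraries lay above the highest NT library. The log2 fold change was 0.37 (SE 0.09, adjusted p = 0.0446) against NT and 0.30 (SE 0.14, adjusted p = 0.206) against NCT. Dad1, a small subunit first named as a defender against cell death (ENSMUSG00000022174, chr14:54235479-54254104, - strand), had 194, 286 and 518 CPM in PL, 150, 208 and 288 CPM in NT, and 115, 170 and 281 CPM in NCT. Its PL libraries all exceeded the NCT median, and 5 exceeded the highest NCT library. Dad1 was higher in PL against NCT, by 0.77 on the log2 scale (SE 0.18, adjusted p = 0.00776), and gave 0.48 (SE 0.14, adjusted p = 0.0716) against NT.

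Stt3a, the catalytic subunit of the form that works alongside the translocon (ENSMUSG00000032116, chr9:36729344-36767679, - strand), had 44.2, 52.8 and 72.7 CPM in PL, 35.9, 48 and 54.8 CPM in NT, and 27.9, 40.4 and 51.3 CPM in NCT. The ranges overlapped, and 5 PL libraries lay above every NCT library. The log2 fold change against NCT was 0.47 (SE 0.14, adjusted p = 0.0317). This call was lost without NCT replicate 1 (0.45, adjusted p = 0.0572), 5 (0.46, 0.0507), 6 (0.45, 0.0599) or 8 (0.42, 0.0566), and without PL replicate 2 (0.43, 0.0546), 3 (0.43, 0.0625) or 9 (0.43, 0.0541). Rpn1, the partner ribophorin, did not pass in either comparison (0.32, SE 0.10, adjusted p = 0.0934 against NT, and 0.33, SE 0.11, adjusted p = 0.0622 against NCT). Ostc, a subunit of the STT3A form, had estimates of -0.06 and -0.13.

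At the translocon, 1 of 6 genes was higher in PL in each comparison. Ssr1, which encodes the alpha subunit of the translocon-associated TRAP complex (ENSMUSG00000021427, chr13:37966605-37994217, - strand), had 150, 195 and 270 CPM in PL, 125, 146 and 172 CPM in NT, and 110, 140 and 172 CPM in NCT. PL was above NT in 9 of 9 mice, and 7 PL libraries lay above the highest library of NT and of NCT alike. On the log2 scale PL was higher by 0.44 (SE 0.09, adjusted p = 0.0245) against NT and 0.46 (SE 0.11, adjusted p = 0.0105) against NCT. The other TRAP genes Ssr2 and Ssr3 had 0.13 and 0.25 against NT and did not pass. Among the channel genes, Sec61a1, the pore subunit, had -0.07 against NT, and Sec61g had 0.05. Sec61b, a small channel subunit, had 101, 156 and 229 CPM in PL, 108, 120 and 264 CPM in NT, and 104, 183 and 275 CPM in NCT, with 0.31 (SE 0.13, adjusted p = 0.226) for PL against NT and -0.38 (SE 0.20, adjusted p = 0.479) for NT against NCT. Its 3 ranges overlapped almost fully.

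The signal peptidase genes Spcs1 and Spcs2, whose products belong to the enzyme that removes signal peptides, passed in no comparison. Spcs1 had 58.3, 82.0 and 153 CPM in PL, 39.9, 79.9 and 158 CPM in NT, and 51.7, 91.2 and 124 CPM in NCT, with a log2 fold change of 0.24 (SE 0.15, adjusted p = 0.436) for PL against NT. Spcs2 had 58.8, 75.8 and 90.8 CPM in PL, 50.7, 67.1 and 79.0 CPM in NT, and 61.4, 82.1 and 95.2 CPM in NCT, with 0.12 (SE 0.11, adjusted p = 0.616) for PL against NT. The groups overlapped for both genes.

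Of the 4 genes of transport between ER and Golgi, Tmed10 was higher in PL in both comparisons. Its product is a p24 family cargo receptor of vesicles that move between these compartments (ENSMUSG00000021248, chr12:85340614-85374847, - strand). Tmed10 had 348, 547 and 876 CPM in PL, 312, 352 and 469 CPM in NT, and 297, 344 and 430 CPM in NCT. PL replicate 8 stood far above the rest, 9 of 9 mice had more in PL than in NT, and 6 PL libraries exceeded every NCT library. The log2 fold changes were 0.44 (SE 0.11, adjusted p = 0.0368) against NT and 0.54 (SE 0.15, adjusted p = 0.0190) against NCT. Kdelr1, a receptor that returns escaped ER proteins, had 84.2, 160 and 201 CPM in PL, 117, 145 and 163 CPM in NT, and 111, 159 and 193 CPM in NCT, with overlapping groups and -0.15 (SE 0.11, adjusted p = 0.623) for NT against NCT. Against NT, PL gave 0.36 for Kdelr2, a second such receptor, and -0.04 for Sec23b, a coat subunit of vesicles that leave the ER.

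The disulfide isomerases, which form and rearrange disulfide bonds, had the largest median log2 fold change of the 9 role groups in both lesion comparisons, 0.50 against NT and 0.57 against NCT. Of the 6 genes, 2 were higher in PL against NT and 4 against NCT. Pdia6 (ENSMUSG00000020571, chr12:17266545-17284770, + strand) had 307, 545 and 762 CPM in PL, 248, 379 and 476 CPM in NT, and 194, 378 and 494 CPM in NCT. PL was higher in 8 of 9 mice, the exception being mouse 5, whose PL library was the lowest. PL was higher by 0.60 (SE 0.14, adjusted p = 0.0343) against NT and 0.65 (SE 0.18, adjusted p = 0.0192) against NCT. The 3′ end of Pdia6 overlaps Atp6v1c2 on the other strand, which held 870 counts over all libraries against 82825 for Pdia6. The sources used here do not say whether counting used strand.

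Pdia3, also known as ERp57, works with the lectin chaperones on glycoproteins (ENSMUSG00000027248, chr2:121413775-121438687, + strand). It had 1037, 1173 and 1566 CPM in PL, 563, 901 and 1109 CPM in NT, and 728, 825 and 1132 CPM in NCT. All PL libraries exceeded the median of NT and of NCT, and 6 lay above the highest library of each. Log2 fold changes of PL were 0.57 (SE 0.15, adjusted p = 0.0496) against NT and 0.48 (SE 0.12, adjusted p = 0.00874) against NCT. P4hb, the founding protein disulfide isomerase and a subunit of prolyl 4-hydroxylase (ENSMUSG00000025130, chr11:120560298-120573253, - strand), had 394, 457 and 658 CPM in PL, 265, 364 and 436 CPM in NT, and 249, 305 and 448 CPM in NCT. Of the PL libraries, 7 lay above the highest NT library and 7 above the highest NCT library. P4hb was higher in PL against NCT by 0.62 (SE 0.12, adjusted p = 0.00156) and had 0.42 (SE 0.11, adjusted p = 0.0525) against NT.

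Pdia4, an isomerase also known as ERp72 (ENSMUSG00000025823, chr6:47796141-47813430, - strand), had 170, 200 and 275 CPM in PL, 60.0, 111 and 261 CPM in NT, and 94.7, 124 and 215 CPM in NCT. NT was the most dispersed group, and mouse 6 was the only one in which NT exceeded PL. The log2 fold change was 0.66 (SE 0.14, adjusted p = 0.00345) against NCT, and 0.81 (SE 0.22, adjusted p = 0.0696) against NT, the largest estimate of the 48 genes there. Pdia5 and Txndc5, the remaining isomerases, had 0.40 and 0.43 against NT without passing. Txndc5 overlaps Bmp6 at its 3′ end on the other strand.

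**Figure D2:**
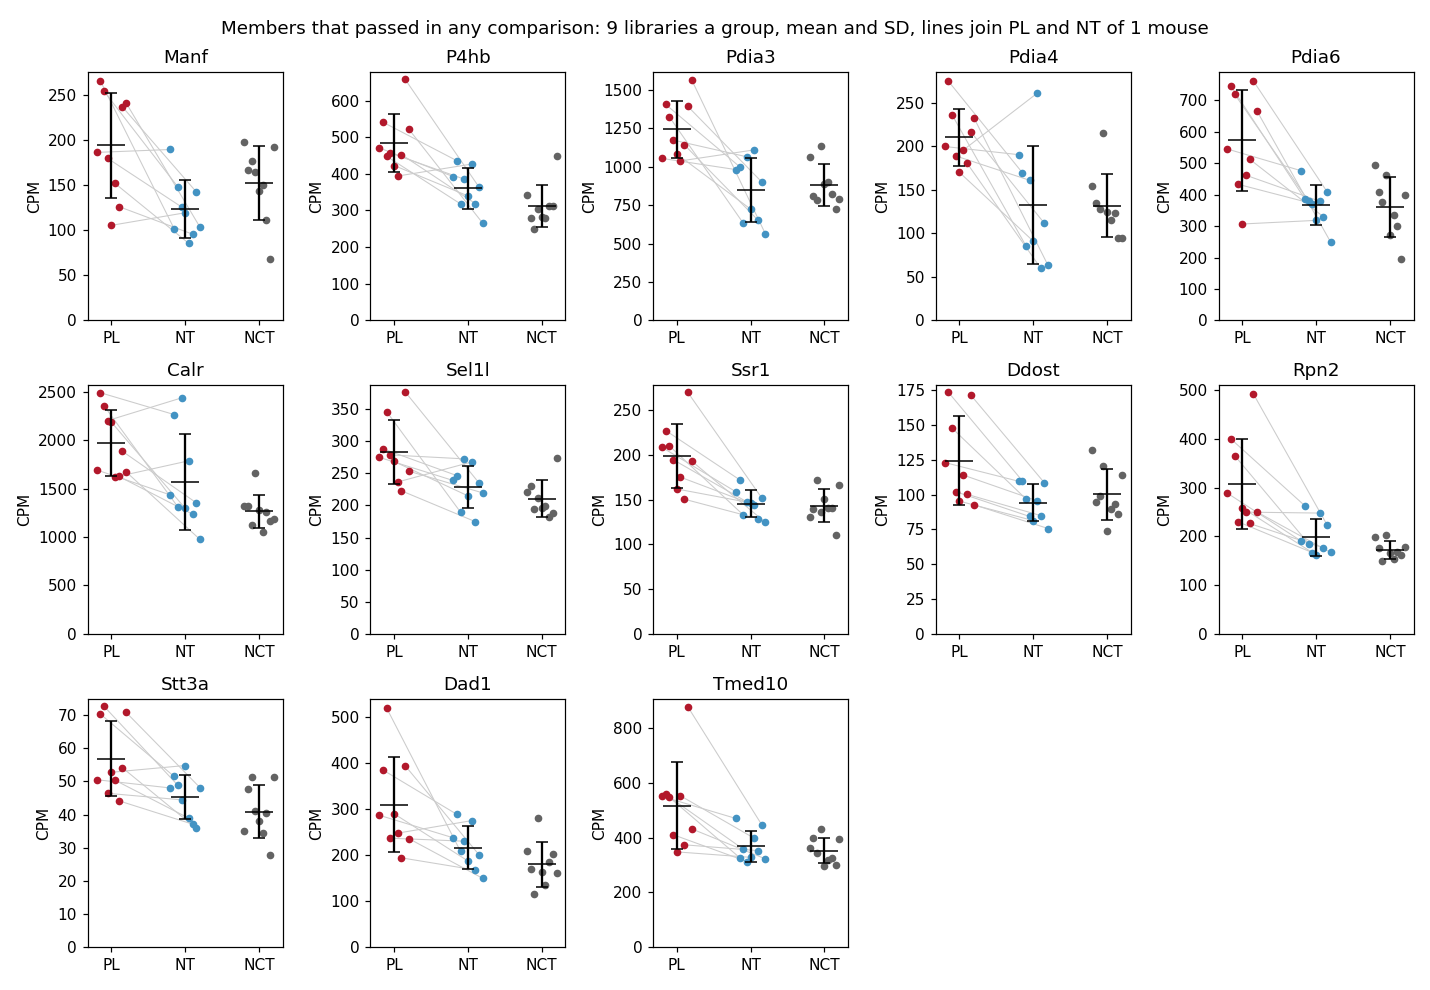
CPM (y axis) of the 13 genes that passed in PL against NT or PL against NCT, with 1 point per library in PL, NT and NCT, mean and SD (n = 9), and grey lines joining PL and NT of 1 mouse. Rpn2 is the gene whose PL libraries, 226 CPM and above, all exceed the highest NCT library of 203 CPM.

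Among 10 lumenal chaperones and co-chaperones, 1 was higher in PL against NT and 0 against NCT. That gene was Manf, a secreted and ER-resident stress protein first described as a neurotrophic factor (ENSMUSG00000032575, chr9:106838312-106891979, - strand). Manf had 106, 187 and 266 CPM in PL, 85.4, 119 and 190 CPM in NT, and 68.0, 165 and 198 CPM in NCT. PL was higher in 7 of 9 mice, and 4 PL libraries exceeded the highest NT library. The log2 fold change was 0.62 (SE 0.15, adjusted p = 0.0395) against NT and 0.34 (SE 0.19, adjusted p = 0.303) against NCT. Without the mouse as a block the adjusted p against NT was 0.0555. Its 3′ end overlaps Dcaf1 on the other strand, which held 4903 counts over all libraries against 29713 for Manf.

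Hspa5, which encodes the Hsp70 chaperone BiP and is the usual marker of the unfolded protein response (ENSMUSG00000026864, chr2:34771970-34777547, + strand), had 1491, 2320 and 3559 CPM in PL, 1393, 1893 and 3195 CPM in NT, and 1047, 2234 and 3705 CPM in NCT. The 3 groups covered much the same range, and PL exceeded NT in 6 of 9 mice. Its log2 fold changes were 0.20 (SE 0.12, adjusted p = 0.424) for PL against NT, -0.07 (SE 0.22, adjusted p = 0.897) for PL against NCT and -0.27 (SE 0.22, adjusted p = 0.668) for NT against NCT. Hsp90b1, the Hsp90 of the ER, had 0.40 (SE 0.14, adjusted p = 0.132) and Hyou1, an Hsp110 family chaperone, 0.42 (SE 0.13, adjusted p = 0.0898) against NT. Hsp90b1 overlaps 1810014B01Rik at its 3′ end on the other strand. All 10 chaperone estimates were positive for PL against NT, and 4 of 10 were positive for PL against NCT.

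Dnajb9, a J-domain partner of BiP also called ERdj4, had 41.8, 45.5 and 89.8 CPM in PL, 34.5, 46.4 and 86.0 CPM in NT, and 40.3, 70.6 and 113 CPM in NCT. Only PL replicate 9 exceeded the NCT median. The log2 fold changes were 0.07 (SE 0.12, adjusted p = 0.816) for PL against NT, -0.46 (SE 0.20, adjusted p = 0.152) for PL against NCT and -0.50 (SE 0.21, adjusted p = 0.363) for NT against NCT. Without PL replicate 9, Dnajb9 and Herpud1 both passed as lower in PL against NCT, and 12 of the 48 genes passed in all. The share of all genes passing in that fit is not given here. The remaining J-domain genes Dnajb11, Dnajc3 and Dnajc10 had 0.06, 0.24 and 0.07 for PL against NT, and Sdf2l1 and Creld2 had 0.32 and 0.16.

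Of the lectin chaperones and the folding sensor, Calr was higher in PL against NCT. Calr encodes calreticulin, a soluble lectin that holds glycoproteins while they fold (ENSMUSG00000003814, chr8:84841850-84846934, - strand). It had 1618, 1884 and 2490 CPM in PL, 975, 1353 and 2436 CPM in NT, and 1049, 1261 and 1661 CPM in NCT. Of the PL libraries, 7 lay above the highest NCT library, which was replicate 4. Calr gave log2 fold changes of 0.63 (SE 0.12, adjusted p = 0.00178) for PL against NCT, 0.37 (SE 0.12, adjusted p = 0.124) for PL against NT and 0.31 (SE 0.15, adjusted p = 0.425) for NT against NCT. Canx, the membrane-bound relative calnexin, had 0.05 (SE 0.10) and Uggt1, which re-tags misfolded glycoproteins, 0.17 (SE 0.15) against NCT, and neither passed.

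In ER-associated degradation, 0 of 7 genes passed against NT and 1 of 7 against NCT. Sel1l, the adaptor of the HRD1 ubiquitin ligase (ENSMUSG00000020964, chr12:91806043-91849157, - strand), had 223, 275 and 377 CPM in PL, 175, 235 and 272 CPM in NT, and 181, 199 and 274 CPM in NCT. All PL libraries exceeded the NCT median and 5 exceeded the highest NCT library. The log2 fold changes were 0.41 (SE 0.11, adjusted p = 0.0186) against NCT and 0.29 (SE 0.11, adjusted p = 0.149) against NT. Syvn1, which encodes HRD1 itself, had the widest spread between mice, with log2 ratios of PL to NT between -1.61 and 2.50. At its 3′ end Syvn1 overlaps Mrpl49 on the other strand, which held 5013 counts against 7209 for Syvn1.

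Edem2, which helps to trim mannose from misfolded glycoproteins, had 27.6, 35.2 and 43.9 CPM in PL, 16.8, 24.8 and 42.6 CPM in NT, and 20.9, 31.7 and 46.0 CPM in NCT. The groups overlapped, with a log2 fold change of 0.41 (SE 0.14, adjusted p = 0.116) against NT. Herpud1, a membrane organizer of the degradation complex and a common stress target, had 42.8, 56.9 and 156 CPM in PL, 37.3, 78.3 and 126 CPM in NT, and 54.8, 106 and 173 CPM in NCT. PL replicate 9 was its highest PL library and the only one above the NCT median. Its estimate was the most negative of the 48 genes in all 3 comparisons, at -0.16 (SE 0.14, adjusted p = 0.610) for PL against NT, -0.69 (SE 0.27, adjusted p = 0.116) for PL against NCT and -0.54 (SE 0.26, adjusted p = 0.442) for NT against NCT. Edem1, Derl1 and Derl2 had 0.04, 0.04 and -0.00 against NT.

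The 4 sensors and transcription factors passed in no comparison. Ern1, which encodes the sensor IRE1 alpha, had 14, 21.2 and 40.3 CPM in PL, 15.7, 16.6 and 19.5 CPM in NT, and 10.9, 15.2 and 22.8 CPM in NCT. PL replicate 9 was far above the other PL libraries. Ern1 gave log2 fold changes of 0.33 (SE 0.17, adjusted p = 0.342) against NT and 0.51 (SE 0.19, adjusted p = 0.0817) against NCT.

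Xbp1, the transcription factor whose mRNA is spliced by IRE1 (ENSMUSG00000020484, chr11:5520659-5525893, + strand), had 46.9, 121 and 138 CPM in PL, 42.7, 109 and 157 CPM in NT, and 69.1, 125 and 221 CPM in NCT. The groups overlapped, and 3′ end counts do not separate the spliced form from the unspliced one. Xbp1 gave 0.18 (SE 0.18, adjusted p = 0.654) for PL against NT and -0.27 (SE 0.20, adjusted p = 0.460) for PL against NCT. Atf6, the sensor that is cleaved into a transcription factor (ENSMUSG00000026663, chr1:170704674-170867771, - strand), had 28.7, 32.9 and 45.9 CPM in PL, 26.1, 31.6 and 41.9 CPM in NT, and 30.6, 36.0 and 50.5 CPM in NCT. Its groups overlapped too, with 0.12 (SE 0.12, adjusted p = 0.666) against NT and -0.05 (SE 0.13, adjusted p = 0.851) against NCT. Its relative Atf6b had 0.11 against NT.

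The 9 mice did not contribute equally. In mice 1 to 9, 31, 42, 39, 34, 25, 31, 36, 38 and 40 of the 48 genes were higher in PL than in NT, and the median log2 ratios were 0.06, 0.47, 0.39, 0.22, 0.06, 0.17, 0.20, 0.39 and 0.42. Mouse 5 came closest to an even split, and its PL library held the lowest PL value for 20 of the 48 genes. PL replicate 7 held it for 16, and NCT replicate 8 held the lowest NCT value for 28. In NT the lowest value lay in replicate 9 for 15 genes and in replicate 7 for 10. NT replicates 9 and 7 had 25830 and 18165 CPM of Pth. PL replicate 2, with 27577 CPM of Pth, held the highest PL value for 14 genes, and NT replicate 9 the highest NT value for 5. The part of Pth-rich tissue in these values was not tested. At the top, NT replicate 1 held the highest NT value for 22 genes and NCT replicate 9 the highest NCT value for 16. Ssr1, Ddost, Rpn2, Tmed10 and Dnajc3 were the 5 genes higher in PL in 9 of 9 mice, and 16 of the 48 were higher in at least 8. Such counts over mice, and the counts in each mouse, were not computed for all genes. They are descriptions of the 48 genes without a background.

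**Figure D3:**
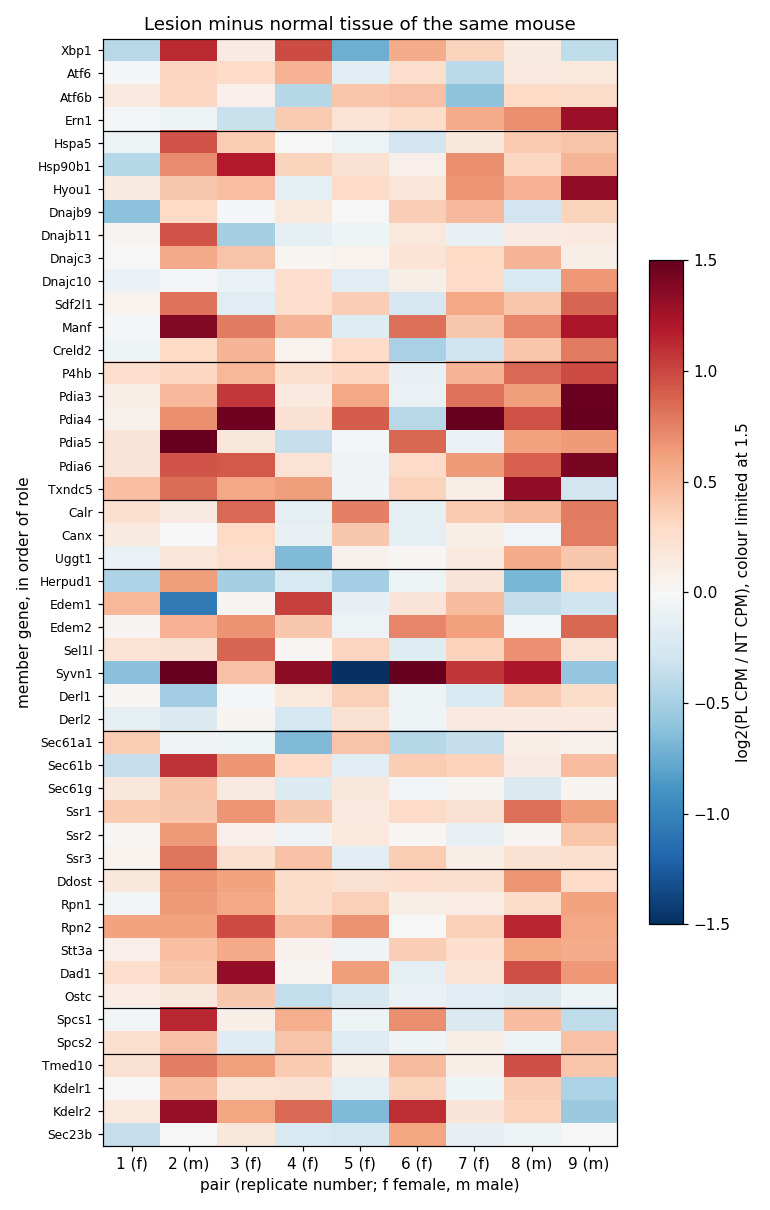
Log2 ratio of PL to NT CPM in each mouse (columns, with sex) for the 48 genes (rows, ordered by role), with colour limited at 1.5. Red, higher in PL, covers 25 of 48 genes in mouse 5 and 42 of 48 in mouse 2.

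Mice 2, 8 and 9 were male, and their median ratios of 0.47, 0.39 and 0.42 were in the upper part of the range, next to 0.39 in female mouse 3. The change in lesions was estimated as larger in males for 46 of the 48 genes, with a median log2 difference of males minus females of 0.27, against 0.01 for all genes. The 48 estimates share the same 3 male mice. In the edgeR interaction test 0 of the 48 genes passed, as did 0 of all genes (0%), and a test with limma-voom gave 0 as well. At an unadjusted p under 0.05, 5 of the 48 genes had a larger change in males and 1 in females, against 1.35% and 1.42% of all genes. The lowest p was that of Pdia6, with a log2 difference of 0.73 and an adjusted p of 0.9998 from edgeR, and Edem1 was the one that ran the other way (-0.91). Cell type markers moved with these values. In males minus females, 10 of 10 follicular markers were positive (median 0.62), 0 of 9 adipocyte markers (median -1.52) and 1 of 10 fibroblast markers (median -0.60), and none of these passed after adjustment. Of the plasma cell and B cell markers 0 of 7 were positive (median -3.04), and none of them passed either. PL replicate 2 and NT replicate 9, both from males, were among the libraries with over 2000 CPM of Pth, and the part of Pth and of these markers in the values was not tested.

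The count of 7 genes higher in PL against NT depended on which mice were included. It was 4 without mouse 1, 2 without mouse 2, 1 without mouse 3, 1 without mouse 4, 5 without mouse 5, 7 without mouse 6, 3 without mouse 7, 1 without mouse 8 and 2 without mouse 9. Shares of all genes passing in these fits are not given here. From the counts of the 48 genes alone, a loss particular to them cannot be told from a general loss of calls. The 7 without mouse 6 were not the same genes. They held Rpn2, Ssr1, Pdia6 and Pdia3, and Pdia4, Dad1 and P4hb in place of Tmed10, Manf and Ddost. Rpn2 kept its call in 9 of 9 such fits, with log2 fold changes of 0.53 to 0.67. Ssr1 kept it in 6, losing it without mouse 3, 4 or 8 (0.39 to 0.47 over the 9 fits), and Pdia6 in 3, without mouse 1, 5 or 6 (0.50 to 0.68). Tmed10 kept it in 2, without mouse 5 or 7 (0.38 to 0.49), Manf in 2, without mouse 1 or 5 (0.53 to 0.72), Pdia3 in 1, without mouse 6 (0.46 to 0.65), and Ddost in 0 (0.33 to 0.40). Every one of these estimates stayed positive. In the 6 female mice alone 0 of the 48 genes passed, with 0.0414% of all genes passing.

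Markers of other cells moved with the comparison of PL and NT. Of 9 C cell markers tested 6 were lower in PL, of 8 airway and gland markers 4, of 10 fibroblast markers 1 and of 10 macrophage markers 1, whereas the follicular marker Tshr was higher. Of 7 plasma cell and B cell markers tested 0 passed, with a median log2 fold change of -0.53. The follicular list as a whole had positive estimates for 9 of 10 genes, Tg being the exception, with a median log2 fold change of 0.42 and 4 higher at an unadjusted p under 0.05. Their part in the values of the 48 genes was not tested. With the C cell, fibroblast or airway marker score as a covariate, 0 of the 48 genes passed, and in each of these 3 fits 0 of all genes passed. Each of these marker lists had a lower median sum in PL than in NT. Score and group are thus partly confounded, and these fits cannot separate them. The median log2 fold change of the 48 genes was 0.23 with the C cell score, 0.17 with the fibroblast score and 0.12 with the airway score. Rpn2 had 0.42, 0.49 and 0.35 in the same fits. Pdia6 had 0.07, 0.26 and -0.028, and Pdia3 0.09, 0.16 and -0.084. Leaving out the 3 mice with a library high in Pth gave 0 of 48 genes, with 0.643% of all genes passing, and 0.64 (adjusted p = 0.0691) for Rpn2.

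Against NCT, between 10 and 12 of the 48 genes passed when any 1 library was left out, and 10 of the 11 genes passed in 18 of 18 such fits, the exception being Stt3a. Shares of all genes passing in those 18 fits are not given here. With the adipocyte score as a covariate 1 gene passed (Calr), with the fibroblast score 2 (Rpn2 and Calr) and with the airway score 2 (Rpn2 and P4hb). The shares of all genes passing in these fits were 0.899%, 1.47% and 2.11%. Each of these marker lists had a lower median sum in PL than in NCT, so score and group are partly confounded here too. Without the libraries high in Pth or Lipf, 3 passed (Rpn2, Calr and P4hb), with 5.47% of all genes. In females alone Rpn2, Calr and P4hb passed as higher and Herpud1 as lower, with 3.24% of all genes. Of the 11 genes, Stt3a and Sel1l lost their calls with the mouse number series, the leading digits of the mouse number, as a covariate. The series were spread unevenly between the NCT mice and the exposed mice, so series and group are partly confounded.

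Between the normal tissues, 0 of the 48 genes passed for NT against NCT, where 0.0277% of all 14447 genes did, 0.00692% as higher and 0.0208% as lower. DESeq2 and limma-voom also gave 0. At an unadjusted p under 0.05, Calr was higher in NT and Dnajb9 was lower, 2.08% of the 48 genes each. The shares of all genes were larger, 5.60% as higher and 5.98% as lower. The median log2 fold change of the 48 genes was -0.10, against 0.01 for all genes, and 18 of 48 estimates were positive. All 10 chaperone estimates were below 0 in the edgeR fit, with a median of -0.25, whereas those of the disulfide isomerases had a median of 0.02 and those of the oligosaccharyltransferase 0.09. NCT replicate 8 held the lowest NCT value for 28 of the 48 genes, and without it the median of the 48 was -0.14. With the mouse number series as a covariate the signs turned, to 0.09 for Hspa5 and 0.0078 for the median of the 48. The series is partly confounded with NT and NCT, as stated above.

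Summed over the 48 genes, levels were 14051 ± 2216 CPM in PL, 11207 ± 1914 CPM in NT and 11805 ± 2203 CPM in NCT (SD, n = 9 each). The groups overlapped, with 11309 to 17822 CPM in PL, 8796 to 14241 CPM in NT and 8085 to 14428 CPM in NCT. Tg, the gene of thyroglobulin and the main cargo of this pathway in follicular cells, had 9701, 21616 and 33473 CPM in PL, 12592, 27809 and 38974 CPM in NT, and 26399, 38390 and 60374 CPM in NCT. In contrast to the 11 ER genes above, Tg was lower in PL against NCT (log2 fold change -0.77, SE 0.21, adjusted p = 0.0210), and it had -0.24 (SE 0.19, adjusted p = 0.567) for PL against NT and -0.55 (SE 0.18, adjusted p = 0.254) for NT against NCT.

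**Figure D4:**
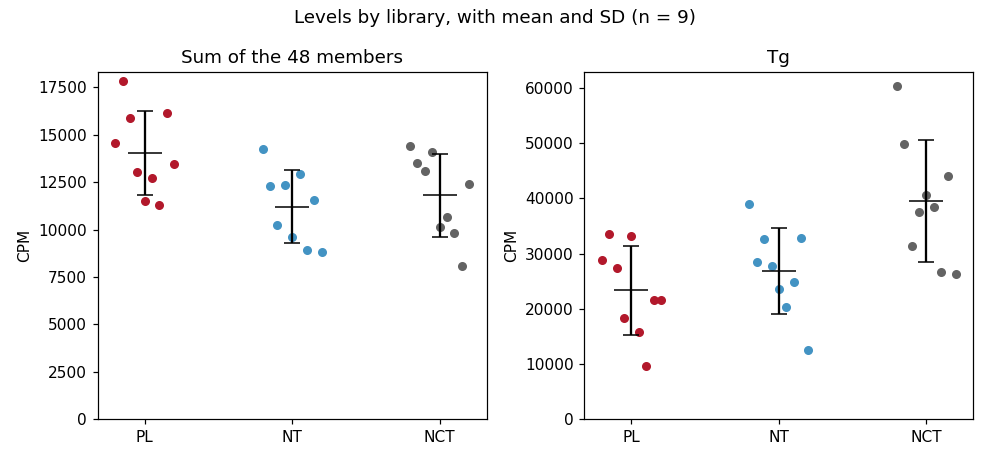
Summed CPM of the 48 genes (left) and CPM of Tg (right) in each PL, NT and NCT library, with mean and SD (n = 9). The summed levels reach 17822 CPM in PL against 14241 in NT and 14428 in NCT, while Tg reaches 33473 CPM in PL, 38974 in NT and 60374 in NCT.

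A wider list took in other ER genes that were not among the 48. Of 82 genes with a row, 81 were tested. Against NT, 9 were higher in PL and none lower, or 11.1% against 3.08% of all genes, with a median log2 fold change of 0.18. The 9 were Ppib, Fkbp11, Tmx1, Erp29, Txndc12, Prdx4, Erlec1, Ssr4 and Tmed3. Against NCT, 12 were higher and 1 lower, 13 of 81 against 10.1% of all genes, the 12 being the same list without Fkbp11 and with Sil1, Mogs, Os9 and Faf2. For NT against NCT 0 passed, with 2 higher and 9 lower at an unadjusted p under 0.05, where 5.60% of all genes were higher and 5.98% lower. None of the 9 higher against NT passed in females only or with the C cell, fibroblast or airway score as a covariate, and in these fits Tmed3 had log2 fold changes down to 0.39 and Txndc12 down to -0.17.

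Prdx4, an ER peroxidase that uses hydrogen peroxide to make disulfide bonds, averaged 75.9 ± 33.2 CPM in PL, 36.5 ± 10.04 CPM in NT and 33.0 ± 12.1 CPM in NCT (SD, n = 9 each). It was higher in PL in 9 of 9 mice, by 0.98 (SE 0.16, adjusted p = 0.00850) against NT and by 1.19 (SE 0.24, adjusted p = 0.00291) against NCT. Ppib, a prolyl isomerase of the ER, averaged 236 ± 67.0 CPM in PL, 149 ± 43.6 CPM in NT and 144 ± 24.2 CPM in NCT, with 0.67 (SE 0.10, adjusted p = 0.00646) against NT and 9 of 9 mice higher in PL. Ssr4, the delta subunit of the TRAP complex to which Ssr1 belongs, rose by 0.56 (SE 0.12, adjusted p = 0.0249) against NT and by 0.74 (SE 0.15, adjusted p = 0.00246) against NCT. Tmed3, a p24 relative of Tmed10, rose by 0.79 (SE 0.14, adjusted p = 0.0117) and 0.85 (SE 0.15, adjusted p = 0.00102) against the same groups. Agr3, an isomerase-like protein known from airway epithelium, was lower in PL, at 6.63 ± 3.38 CPM against 24.5 ± 5.73 CPM in NCT (-1.90, SE 0.28, adjusted p = 9.91e-05). The markers of airway and gland epithelium were lower in PL against NCT as well, in 6 of 6 genes tested, and with their score as a covariate Agr3 gave -1.77.

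Set beside the promoter elements shown above, the change in lesions had like medians with and without a match. Among the 8 genes with an ERSE match the median log2 fold change for PL against NT was 0.30, between 0.15 and 0.63, and 1 was called higher. Among the 32 genes in the table without one it was also 0.30, between -0.16 and 0.81, with 5 called. For PL against NCT the medians were 0.07 with a match and 0.13 without, and 2 and 9 were called. For NT against NCT they were -0.23 and -0.08, with none called. These are descriptions of 8 and 32 genes and were not tested.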

How the data were processed

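The authors deposited raw read counts per gene, whole numbers with no normalization, for 27 libraries made from laser-captured thyroid with a 3′ end kit, per the labels' protocols. Per the submitters' processing notes, STAR, featureCounts, DESeq2 and GRCm38 were used, with no version or role stated. The sources used here give no strand setting, annotation release or use of molecular identifiers. Of 54532 rows, 54409 were matched to names in GENCODE M21, and the 123 others held 0.0251% of counts.

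Each comparison was fitted with edgeR 4.0.16 in R 4.3.3 (TMM factors, filterByExpr with a minimum count of 10, robust quasi-likelihood F test, Benjamini-Hochberg adjustment over all genes, threshold 0.05) on the libraries of the groups compared. PL against NT had the mouse as a block. The pairing comes from the mouse numbers in the labels. Deviations from the group means correlated within the 9 pairs at -0.00646 to 0.233, above 0.1 in 6 of them. Whether libraries of different mice vary technically or biologically cannot be told apart, and counts without molecular identifiers are not independent molecules. Standard errors were derived approximately from each log2 fold change and its F statistic. CPM used TMM factors over all 27 libraries. None of the 108 library pairs within groups agreed within sampling noise (lowest chi-square per degree of freedom 13.4). The fit was tested on simulated data.

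The 48 genes, the roles, the list of other ER genes and the marker lists were chosen with earlier results of these data known. Values are given for genes that passed in any comparison, the gene of smallest p in each role group, Hspa5, Xbp1, Atf6 and Tg, and for other ER genes that passed. The promoter elements of genes outside this rule, and the other genes for which values are printed, were chosen after they were seen. Ero1a and Ero1b have no row under those names and were counted as Ero1l and Ero1lb. Alternatives were size factors of DESeq2 1.42.0 or upper-quartile scaling, DESeq2's own Wald test, voom of limma 3.58.1 with quality weights, no filter and a filter of 10 counts in 9 libraries, removal of Tg and mitochondrial genes, females only, removal of libraries over 2000 CPM of Pth or Lipf, marker scores (C cell, adipocyte), sex or mouse number series as covariates, 1 fit of all 27 libraries, no mouse block, and each library or pair left out. The fibroblast and airway scores were added after seeing the data.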

Additional observations from a re-analysis of the deposited data

Results flagged for a closer look

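Of 144 sets of 9 libraries (48 genes in 3 groups), 15 had a highest or lowest library whose gap to the next, divided by the whole range, exceeded Dixon's 95% limit for 9 values. For values from a normal distribution this happens in about 1 of 20 sets. CPM was used without a log scale, and most of the flagged libraries were high ones. The 1 of 20 is thus not a background for these counts. The libraries of a gene set are shared between genes, so these are not 15 separate events.

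Among the lesions, PL replicate 9 stood above the other PL libraries for Ern1 (40.3 CPM, next 25.8), Dnajb9 (89.8 CPM, next 58.9), Dnajc10 (128 CPM, next 96.4) and Herpud1 (156 CPM, next 75.6). PL replicate 8 did so for Tmed10 (876 CPM, next 558) and Txndc5 (147 CPM, next 90.8). PL replicate 5 was the low library for Sec23b (30.5 CPM, next 40.4). In NT, replicate 9 was high for Kdelr2 (119 CPM, next 74.1).

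In NCT, replicate 9 was high for Dnajc10 (142 CPM, next 93.7), P4hb (448 CPM, next 343), Kdelr2 (131 CPM, next 84.1) and Sec23b (158 CPM, next 58.9). This is the library with 9934 CPM of Lipf and the lowest total, 2923851 counts, and the part of these in the values was not tested. NCT replicate 4 was high for Pdia4 (215 CPM, next 155) and Calr (1661 CPM, next 1324), and NCT replicate 2 for Atf6 (50.5 CPM, next 39.0).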

How the results depend on the processing

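For PL against NT, 7 genes passed as reported. DESeq2's Wald test gave 12, and 0 passed in females only, without libraries high in Pth or Lipf, and with the C cell, fibroblast or airway marker score as a covariate. Leaving out 1 pair gave 1 to 7. Without the replicate block 5 passed (Rpn2, Ssr1, Pdia6, Pdia3 and P4hb), and the remaining settings gave 5 to 10. Shares of all genes passing are not given for the Wald test or these settings, so their counts have no background here. Of the 13 settings other than a pair left out, Pdia3 kept its call in 3 and Ddost in 4. Both lost it with DESeq2 size factors and with upper-quartile factors. Rpn2, Ssr1 and Pdia6 kept theirs in 8, and Manf and Tmed10 in 7. The median log2 fold change of the 48 genes was 0.12 with the airway score. Estimates changed sign for Txndc12 with the C cell score (-0.17) and for Pdia3 (-0.084) and Pdia6 (-0.028) with the airway score. The cause was not tested. For PL against NCT, 11 passed as reported, 4 in females only, 3 without libraries high in Pth or Lipf, 1 with the adipocyte score, and 2 each with the fibroblast and airway scores. Leaving out 1 library gave 10 to 12, and the remaining settings 9 to 13. For NT against NCT every setting gave 0 calls, while the median of the 48 genes ran from -0.15 to 0.0078, and the sex difference gave 0 with limma-voom too. Of the other ER genes, 9 passed in PL against NT as reported, 3 to 10 with 1 pair left out, 0 in females only and with the C cell, fibroblast or airway score, 2 without libraries high in Pth or Lipf, and 8 to 16 in the remaining settings; in PL against NCT 13 passed, and 2 to 14 over all settings. Totals of 2923851 to 14148601 counts limit the precision of the genes of low CPM. With 9 libraries a group and small fold changes, adjusted p near 0.05 moves with single mice.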
